A study of Homo sapiens with 8 samples.

Results

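The genes described here are those of the cytosolic ribosomal proteins. They were taken by symbol from the GENCODE annotation of hg19, as autosomal protein-coding genes named RPL or RPS followed by a digit, without the RPS6K kinases, together with RPLP0, RPLP1, RPLP2 and RPSA. This gave 84 of 19229 autosomal protein-coding genes, namely 40 genes of large subunit proteins, 30 of small subunit proteins, 3 of the stalk and 8 paralogs. The remaining 3 are RPS19BP1 and the read-through genes RPS10-NUDT3 and RPL17-C18orf32. The read-through genes start within 1 kb of RPS10 and RPL17. RPS19BP1 encodes a regulator of the deacetylase SIRT1 and not a ribosomal protein. The rule uses symbols and no measured value, though the genes were chosen with earlier results of these data known.

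Ribosomal proteins fold around the ribosomal RNAs to form the small subunit, which decodes mRNA, and the large subunit, which joins amino acids. Their genes are among the most highly transcribed in dividing cells, and their mRNAs begin with a run of pyrimidines, the terminal oligopyrimidine tract, through which the mTOR pathway sets their translation. H3K27ac, acetylation of lysine 27 of histone H3, marks active promoters and enhancers. H3K23su is succinylation of lysine 23 of the same histone.

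CUT&Tag, in which an antibody directs a transposase to chromatin, was run on HCT15, an established human colorectal cancer line, with antibodies against H3K23su and H3K27ac. The parental line, HCT15-Pa, was treated with the solvent DMSO, and its derivative HCT15-FR, which is resistant to the pyrimidine analog 5-fluorouracil (5-FU), with 20 μg/ml 5-FU. According to the methods of the study, HCT15-FR was cultured with the drug and then kept without it for some days before experiments. Each line gave 2 libraries for each mark, 8 in all, and nothing in the labels says whether the 2 came from separate cultures, so the spread between them may be technical. HCT15-FR is 1 resistant line, so resistance cannot be told apart from other differences between the lines.

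The 4 H3K23su lists hold between 65364 and 68365 peaks and the 4 H3K27ac lists between 70600 and 76676, and the read depth behind them is not in the lists. Peaks were wider in HCT15-FR across the genome, with a median of 447 and 451 bp against 386 and 387 bp for H3K23su and of 467 and 483 bp against 403 bp in both HCT15-Pa lists for H3K27ac. Of 10 genes of intestinal or general epithelium, 6 had an H3K23su peak and 8 an H3K27ac peak at the promoter in all 4 lists. KRT20, a keratin of differentiated enterocytes, had an H3K23su peak in 1 list and no H3K27ac peak, and CDX1 had peaks in 2 lists of each mark.

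For every gene, the transcription start site (TSS) of its representative transcript was taken, and the highest-scoring peak within 1 kb of it was called the promoter peak. Its score, as deposited, is the −log10 P value from MACS2. Scores are not on the same scale in different lists, so each was turned into its percentile among all peaks of its own list, where 100 is the strongest. Where a list holds no peak near a gene, the mark there fell short of the authors' calling threshold, and it may still be present. H3K27ac peaks were called in broad mode and H3K23su peaks were not, so the peak mode and the mark cannot be told apart in any comparison of the marks.

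The start sites themselves are shown first, since they distinguish the ribosomal protein genes from other genes and some of the paralogs from the genes they resemble. Each line gives 15 bases before the TSS and 15 from it, on the strand of the gene, from GRCh37. A C within 5 bases of the TSS that is followed by at least 4 pyrimidines is an oligopyrimidine start, and its tract is in capitals.
RPL21, chr13:27825680-27825709: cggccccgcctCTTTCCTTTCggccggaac
RPL37A, chr2:217363552-217363581: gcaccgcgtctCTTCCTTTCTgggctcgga
RPS15A, chr16:18801642-18801671: ctctcccctcccgtCCTCTTTCCgccatct
RPL28, chr19:55897285-55897314: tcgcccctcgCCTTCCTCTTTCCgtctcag
RPL26, chr17:8286497-8286526: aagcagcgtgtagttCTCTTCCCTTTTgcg
RPL3, chr22:39715614-39715643: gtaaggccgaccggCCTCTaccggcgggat
RPL18, chr19:49122421-49122450: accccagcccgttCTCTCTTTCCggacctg
RPS27, chr1:153963223-153963252: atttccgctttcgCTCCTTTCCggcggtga
RPL22L1, chr3:170587970-170587999: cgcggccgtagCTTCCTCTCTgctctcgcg
RPS27L, chr15:63449662-63449691: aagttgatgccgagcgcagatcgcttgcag
RPL23A, chr17:27046988-27047017: cccgtgggaacgagcattggagaccctttt
RPL3L, chr16:2004676-2004705: agtcctggccctgccactcgacctctggcg
RPL10L, chr14:47120970-47120999: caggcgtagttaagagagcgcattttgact
RPL39L, chr3:186857270-186857299: gcatccggggaaatcgcggtcttagcatcc
Among the large and small subunit genes with peaks in every list, RPL21, RPL37A and RPS15A ranked highest for H3K23su and RPL3, RPL26, RPL28 and RPL23A lowest, while RPL18 and RPS27 had an H3K23su peak in HCT15-FR lists only. Of the paralogs shown, RPL22L1 and RPS27L had both marks in every list and RPL3L, RPL10L and RPL39L had neither. An oligopyrimidine start was found in 68 of the 84 genes (81.0%) and in 21.7% of all 19229 genes. The tract was longest at RPL7A, with 21 bases. Of the 8 paralogs, RPL22L1, RPL26L1 and RPL36AL had such a start and RPL3L, RPL7L1, RPL10L, RPL39L and RPS27L did not.

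**Figure D1:**
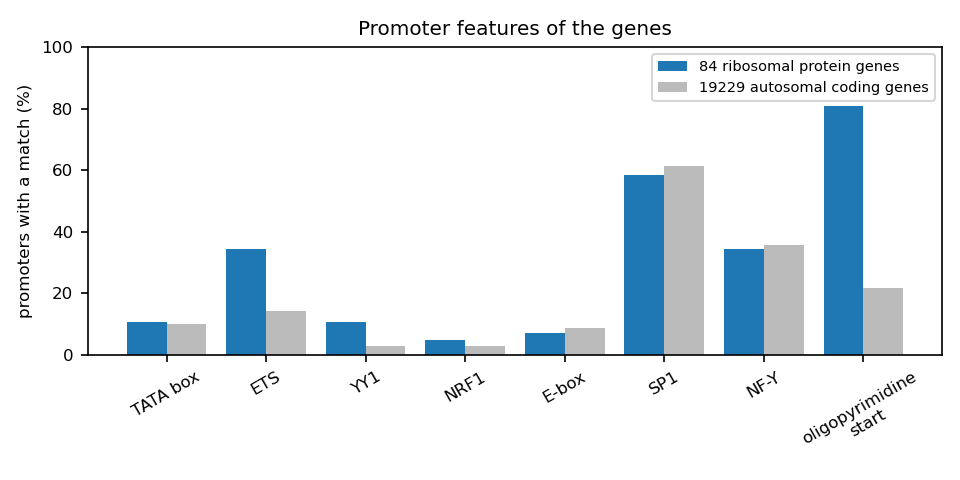
Share of promoters, in percent, with a match to each feature among the 84 ribosomal protein genes (blue) and all 19229 autosomal coding genes (grey). The oligopyrimidine start stands at 81.0% against 21.7% and the ETS letters at 34.5% against 14.1%, while the SP1 and NF-Y letters are about as frequent in both.

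Promoters, from 250 bases before the TSS to 50 after it, were also searched on both strands for the letters of 7 known motifs. A match is only a string of letters in this window. CCGGAAG, the core of ETS family sites, was in 29 of the 84 promoters (34.5%) and in 14.1% of all promoters. AAGATGGCG, the core of the YY1 site, was in 9 (10.7%) and 2.84%. GCGCATGCG, from the NRF1 site, was in 4 (4.76%) and 2.71%. The letters GGGCGG of SP1 sites were in 58.3% of the ribosomal protein promoters and 61.3% of all, and those of NF-Y, CCAAT, in 34.5% and 35.7%. TATAAA was in 9 promoters (10.7%), among them those of RPL3, RPL7A, RPS3 and RPLP0, against 9.83% of all, and CACGTG, the E-box, was in 7.14% against 8.65%. RPL17-C18orf32 was counted at its own TSS, with TATAAA and an oligopyrimidine start, both of which RPL17 lacked. The ETS and SP1 letters can share a base, and at RPL3 they lie side by side without overlap. The median GC content of the window was 60.2% for the ribosomal protein genes and 63.7% for all genes.

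To show how these letters lie at the promoters at the ends of the H3K23su ranking, the 200 bases before the TSS are given for RPL21, RPS27L and RPL3, and for the 2 genes with H3K23su peaks in HCT15-FR lists only. Capitals mark matches to the motifs searched, on either strand.
RPL21, chr13:27825495-27825694: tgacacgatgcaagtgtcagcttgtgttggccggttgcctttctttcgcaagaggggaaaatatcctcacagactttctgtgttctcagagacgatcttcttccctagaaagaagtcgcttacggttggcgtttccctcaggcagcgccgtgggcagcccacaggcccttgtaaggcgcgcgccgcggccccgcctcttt
RPS27L, chr15:63449677-63449876: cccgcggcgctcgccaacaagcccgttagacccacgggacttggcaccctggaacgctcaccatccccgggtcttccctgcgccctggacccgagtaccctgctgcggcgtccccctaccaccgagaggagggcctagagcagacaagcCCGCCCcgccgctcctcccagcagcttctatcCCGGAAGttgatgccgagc
RPL3, chr22:39715629-39715828: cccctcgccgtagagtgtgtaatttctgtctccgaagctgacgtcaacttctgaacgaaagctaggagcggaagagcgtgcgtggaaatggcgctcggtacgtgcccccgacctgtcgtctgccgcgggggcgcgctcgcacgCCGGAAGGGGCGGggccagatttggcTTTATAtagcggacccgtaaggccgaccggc
RPL18, chr19:49122436-49122635: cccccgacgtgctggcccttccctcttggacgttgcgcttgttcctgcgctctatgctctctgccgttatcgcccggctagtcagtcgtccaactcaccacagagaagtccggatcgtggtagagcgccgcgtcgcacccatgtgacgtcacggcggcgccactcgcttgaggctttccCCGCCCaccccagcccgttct
RPS27, chr1:153963038-153963237: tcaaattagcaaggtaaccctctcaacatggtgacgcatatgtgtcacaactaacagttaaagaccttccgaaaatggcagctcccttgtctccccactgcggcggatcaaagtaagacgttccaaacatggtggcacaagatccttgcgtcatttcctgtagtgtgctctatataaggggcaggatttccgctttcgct
RPL3, with the lowest H3K23su percentile, had 3 matches in these 200 bases, to the ETS, SP1 and TATAAA letters. RPS27L had 2, RPL18 had 1, and RPL21 and RPS27 had none. In the longer window searched above, RPL21 had the YY1 letters and RPL18 the ETS letters as well. The median H3K23su percentile was 87.8 for the 60 genes with an oligopyrimidine start and 75.6 for the 12 without among those with a peak in all 8 lists, and the median H3K27ac percentile was 96.0 in both. For the 7 genes with TATAAA the median H3K23su percentile was 72.8, against 86.0 for the other 65. These medians are given as a description.

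Most ribosomal protein promoters carried both marks in every list. An H3K27ac peak lay within 1 kb of the TSS in all 4 lists at 81 of 84 genes (96.4%), where 57.6% of all genes had one. An H3K23su peak did so at 72 of 84 (85.7%), where 53.3% of all genes had one. The H3K23su share was higher for mitochondrial ribosomal proteins (97.4%), proteasome subunits (93.2%) and ribosome biogenesis (100%). It was 87.0% for translation factors and others with oligopyrimidine mRNAs. For H3K27ac these groups stood at 98.7%, 95.5%, 100% and 95.7%. Per list, 75, 76, 81 and 80 ribosomal protein genes had an H3K23su peak in HCT15-Pa 1 and 2 and HCT15-FR 1 and 2. An H3K27ac peak was present at 81 of them in each of the 4 lists. The 3 genes without any peak, RPL3L, RPL10L and RPL39L, were without one for both marks. Among all genes, 35.7% had no H3K23su peak and 29.5% no H3K27ac peak in any list. RPL3L replaces RPL3 in striated muscle, and RPL10L and RPL39L are the copies of RPL10 and RPL39 used in male germ cells.

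**Figure D2:**
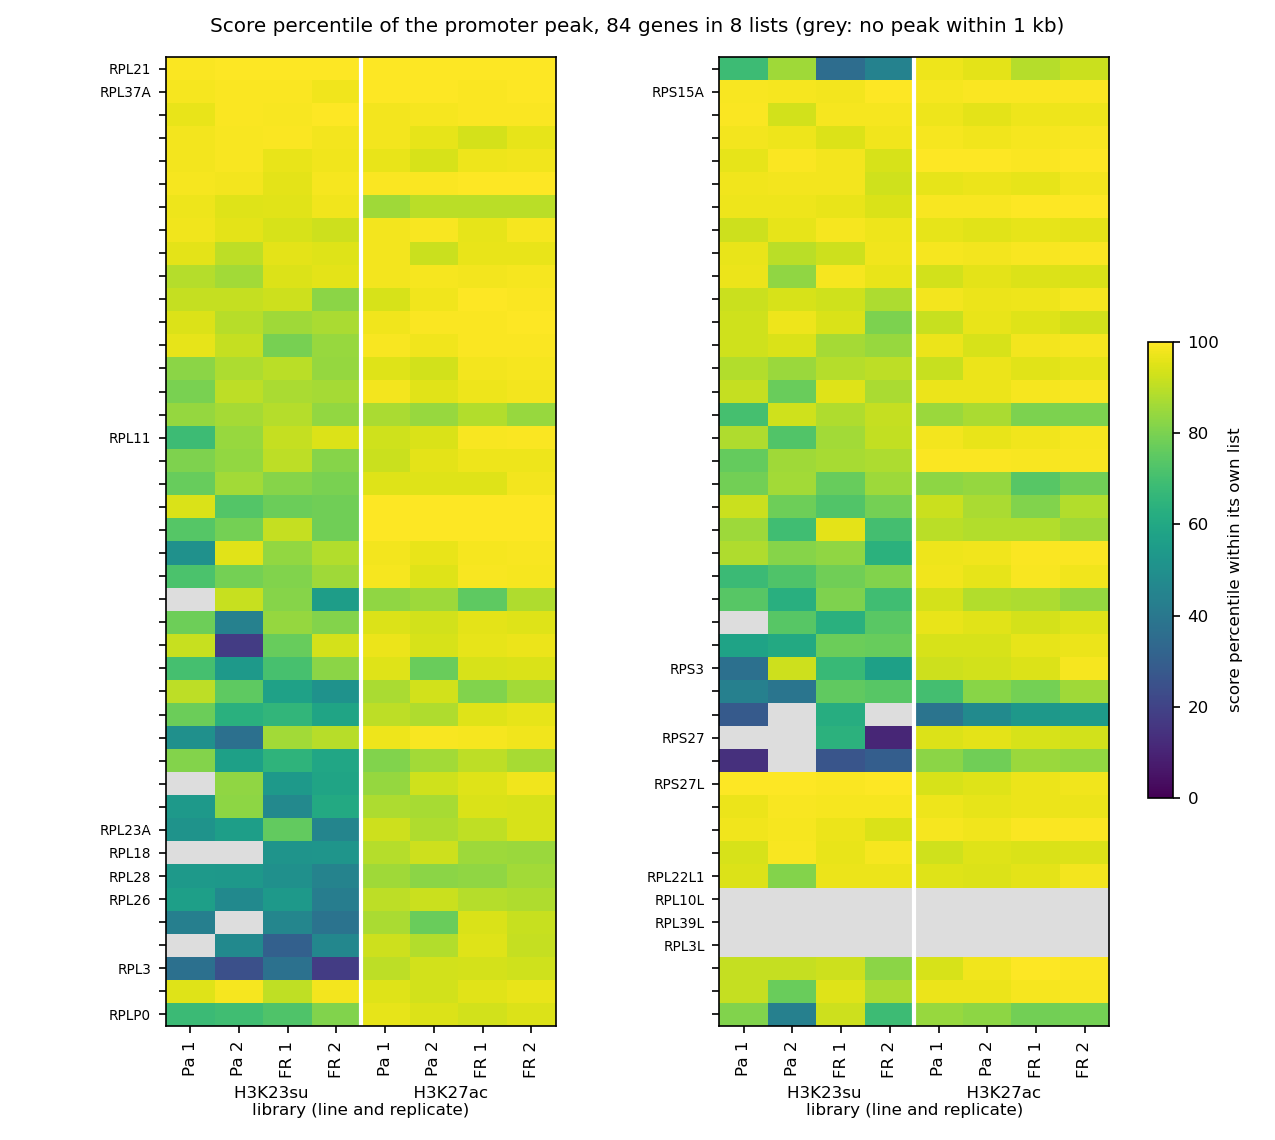
Score percentile of the promoter peak of each of the 84 genes (rows) in the 8 lists (columns, with line and replicate), by class and then by mean H3K23su percentile, with some of the genes named and grey for no peak within 1 kb. The H3K27ac columns are high for nearly every gene, the H3K23su columns run from 99.7 at RPL21 to 29.1 at RPL3 on average among genes with a peak in all 4 lists, and RPL3L, RPL10L and RPL39L are grey throughout.

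The 9 genes that lacked H3K23su in some lists all had H3K27ac in 4. They make up 11.1% of the 81 genes with H3K27ac in all 4 lists. Of all such genes, 8.82% lacked an H3K23su peak in at least 1 list. This share was 1.30% for mitochondrial ribosomal proteins, 2.38% for proteasome subunits and 0% for ribosome biogenesis. It was 9.09% for translation factors and others with oligopyrimidine mRNAs. Among the 9 genes are the large subunit genes RPL13, RPL18, RPL29 and RPL41 and the small subunit genes RPS2, RPS18 and RPS27. RPL29 and RPL41 lacked it in HCT15-Pa 1 only, RPL13 and RPS2 in HCT15-Pa 2 only, and RPS18 in the second library of each line. Where the genes named here had an H3K23su peak, its percentile was below 90. RPS2, at the entry of the mRNA channel, had percentiles of 14.0, 26.4 and 29.9 in HCT15-Pa 1 and HCT15-FR 1 and 2. RPL41, the shortest ribosomal protein, had 47.5, 30.5 and 46.2 in HCT15-Pa 2 and HCT15-FR 1 and 2. The median GC content of the promoter window was 60.0% for these 9 genes and 60.0% for the 72 with H3K23su in all 4 lists.

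RPL18 and RPS27 had an H3K23su peak in both HCT15-FR lists and in neither HCT15-Pa list. At RPL18 the peaks were chr19:49122269-49122608 and chr19:49122258-49122667, of 340 and 410 bp, at percentiles 51.7 and 52.1. At RPS27 they were chr1:153963159-153963670 and chr1:153963169-153963598, of 512 and 430 bp, at percentiles 64.4 and 10.7. All 4 peaks lie over the TSS and its flanks shown above, and none reached the 90th percentile of its list. H3K27ac was present at both genes in all lists, at 89.0, 92.3, 85.5 and 85.0 for RPL18 and 94.9, 95.7, 93.9 and 93.0 for RPS27. These 2 of 84 genes compare with 1.83% of all genes for H3K23su in HCT15-FR lists only. No ribosomal protein gene had H3K23su in HCT15-Pa lists only, where 1.46% of all genes did. None had H3K27ac in lists of 1 line only, where 1.25% of all genes had it in HCT15-FR lists only and 2.06% in HCT15-Pa lists only. With 2 libraries against 2, an exact permutation test of presence cannot give a p below 0.333.

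Around the TSS, peaks covered the ribosomal protein genes more often than genes in general. At the TSS itself, an H3K27ac peak covered 95.2% of the 84 genes in either line on average, and 54.5% and 53.3% of all genes in HCT15-Pa and HCT15-FR. H3K23su covered 77.4% of them in HCT15-Pa and 92.9% in HCT15-FR, and 44.1% and 49.1% of all genes. At 1000 bp downstream H3K23su covered 8.93% and 12.5% of the ribosomal protein genes, below the 14.4% and 18.4% of all genes, which it covered less often at the TSS. H3K27ac covered 11.9% and 18.5% there, and 11.9% and 14.2% of all genes. Measured from the TSS to the edge of the promoter peak, H3K23su reached a median of 277 to 392 bp upstream and 471 to 597 bp downstream in the 4 lists. H3K27ac reached 507 to 557 bp upstream and 635 to 746 bp downstream. Over the 10242 genes with H3K23su in all 4 lists, the downstream reach was 662 to 773 bp, so the H3K23su peaks of the ribosomal protein genes ended closer to the start site on that side. Upstream they reached slightly farther in each list, beside 269 to 337 bp over all genes. Over the 11067 genes with H3K27ac in all 4 lists, that mark reached 438 to 473 bp upstream and 643 to 699 bp downstream, so its downstream edge was closer at the ribosomal protein genes in HCT15-Pa 1 alone.

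**Figure D3:**
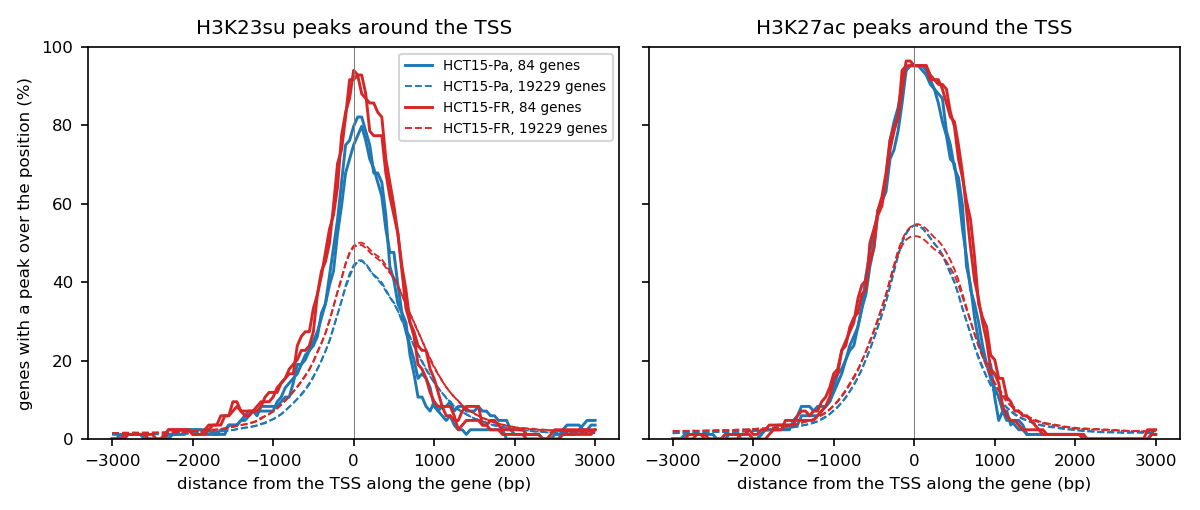
Share of genes, in percent, with a peak over each position from 3000 bp upstream to 3000 bp downstream of the TSS, for the 84 ribosomal protein genes (solid) and all 19229 genes (dashed), with 1 line per library in blue for HCT15-Pa and red for HCT15-FR. H3K27ac reaches 95.2% at the TSS in both lines, and H3K23su 77.4% in HCT15-Pa and 92.9% in HCT15-FR.

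H3K23su varied widely among the 72 genes with a peak in all 8 lists. The mean percentile over the 4 lists ran from 29.1 to 99.7, with a median of 86.0, beside 86.8 for the 10091 genes with peaks in all 8 lists. RPL21, a large subunit protein, was at 99.4, 99.9, 99.7 and 99.8 in HCT15-Pa 1 and 2 and HCT15-FR 1 and 2. RPS27L, the paralog of RPS27 known as a target of p53, was at 99.7, 99.7, 99.5 and 99.8. RPS15A was at 98.9, 98.8, 98.3 and 99.8, and RPL37A at 98.6, 99.2, 99.3 and 98.0. At each of these 4 genes the lowest value of the 4 lists was still above the 90th percentile.

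At the other end, RPL3, which lines the peptidyl transferase centre, was at 37.1, 24.4, 37.2 and 17.8. RPL26, at the exit of the peptide tunnel, was at 56.6, 47.3, 54.1 and 42.2. RPL28 was at 53.6, 53.1, 50.1 and 44.8, and RPL23A, a docking site for factors at the tunnel exit, at 51.4, 55.9, 76.1 and 45.4. RPL3 was below RPL26, RPL28 and RPL23A in every list, and those 3 overlapped. Some genes differed more between replicates than between lines. RPL34 was at 91.5 and 17.9 in the HCT15-Pa lists, and RPS3, which sits at the mRNA entry and also takes part in DNA repair, at 36.9 and 92.2. Over the 72 genes, the median difference in percentile between the 2 replicates was 5.38 in HCT15-Pa and 4.48 in HCT15-FR.

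The width of the H3K23su peak also varied among the 72 genes. RPL7, RPS27A, RPL8 and RPL9 were among the genes with the widest peaks by mean over the 4 lists. RPL7 had 2271, 1644, 2699 and 2632 bp, and RPS27A 1665, 1842, 1974 and 1413 bp. RPL6, RPL13A, RPL34, RPS20 and RPS24 had the narrowest. RPL34 had 406, 350, 635 and 567 bp. The highest percentile and the widest peak did not fall on the same genes, since RPL21 had 1209, 952, 956 and 982 bp.

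H3K27ac was strong at almost all of them. Of the 72 genes, 59 had a mean percentile above 90, or 81.9%, where 47.3% of the 10091 genes did. The share was 80% for translation factors and others with oligopyrimidine mRNAs and 70.7% for proteasome subunits. It was 65.8% for mitochondrial ribosomal proteins and 65.4% for ribosome biogenesis. The highest of the 72 was RPL21, at 99.9 in each of the 4 lists, and RPS12 and RPS19BP1 were among the lowest. RPL19, RPL35A and RPL37A followed RPL21, with means of 99.7 ± 0.0944, 99.7 ± 0.0422 and 99.7 ± 0.153 (SD, n = 4), and did not differ beyond their spread. Among the 9 genes short of H3K23su, RPS18 in the head of the small subunit stood below all 72 in its mean, at 38.4, 47.8, 53.3 and 55.0. RPSA, also known as the laminin receptor, was at 99.7, 99.6, 99.5 and 99.6 with peaks of 748, 770, 1093 and 977 bp. Among the 72 genes, the widest H3K27ac peaks were at RPL7, RPL7A, RPL12, RPL28 and RPS12 and the narrowest at RPS24, RPS19BP1, RPL14, RPSA and RPL37A. Outside the 72, RPS27, RPL18 and RPS18 had mean H3K27ac widths of 635, 688 and 885 bp, narrower than RPSA at 897 bp. RPS12 had 1731, 1750, 2572 and 2319 bp, at percentiles of 83.0, 84.1, 74.2 and 78.5, so its wide peaks were not among the strongest.

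Set side by side, the 2 marks ranked the same promoters differently. The median of the mean percentile was 86.0 for H3K23su and 96.2 for H3K27ac over the 72 genes, and 86.8 and 89.3 over the 10091. Above the 90th percentile were 27 of the 72 genes for H3K23su and 59 for H3K27ac, and 26 for both. A comparison of the marks across all genes was added after these levels had been seen. It used limma on the normal quantile of the percentile, with the line as a covariate and Benjamini-Hochberg adjustment over the 10091 genes. H3K27ac ranked higher at 46 of the 72 genes (63.9%) and lower at 3, where 21.8% of all genes ranked higher and 12.0% lower. Without the read-through genes and RPS19BP1 these were 44 of 69 and 3. The median difference was 0.690 on the normal-quantile scale, beside 0.0719 over all genes.

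**Figure D4:**
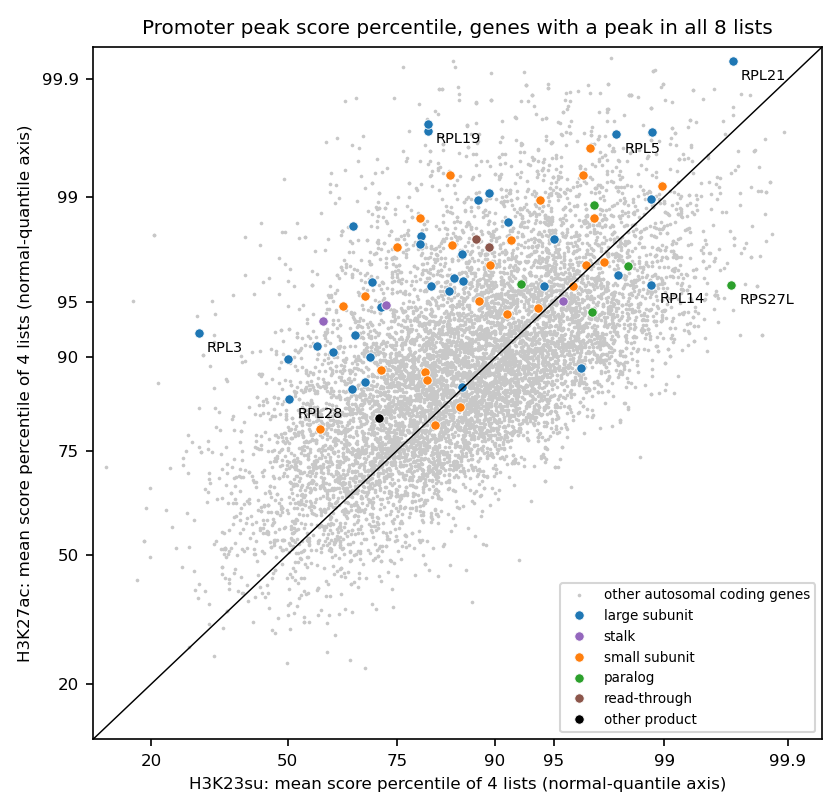
Mean score percentile of the promoter peak over the 4 H3K27ac lists against that over the 4 H3K23su lists, on normal-quantile axes, for genes with a peak in all 8 lists, with the 72 ribosomal protein genes coloured by class, the other genes in grey and the diagonal where both are equal. Most coloured points lie above the diagonal, RPL3 farthest from it, with RPS27L and RPL14 below.

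The percentiles were also compared without a model. At 41 of the 72 genes all 4 H3K27ac percentiles lay above all 4 H3K23su percentiles, or 56.9%, where 19.8% of the 10091 genes did so, and at 3 they lay below. Among genes with a mean H3K27ac percentile above 90, the median H3K23su percentile was 89.3 for the 59 ribosomal protein genes and 92.9 for all 4776. In that set, 12 of the 59 (20.3%) had an H3K23su percentile below 75, beside 9.78% of the 4776. In the other direction, 26 of the 27 ribosomal protein genes above the 90th percentile for H3K23su were also above it for H3K27ac, or 96.3%, beside 74.0% of all 4025 such genes. Spearman's rho between the mean percentiles of the marks was 0.528 across the 72 genes and 0.602 across the 10091. Genes are not independent replicates, and both marks were measured in the same lines.

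By class, H3K27ac ranked higher at 27 of 35 large subunit genes, 15 of 26 small subunit genes, 2 of the 3 stalk genes and none of the 5 paralogs with peaks. RPL3 differed most, by 2.01 ± 0.175 (SE, adjusted p = 6.03e-05), with H3K27ac at 90.2, 93.2, 93.7 and 92.7 against the low H3K23su values above. RPL19 followed, with H3K27ac at 99.7, 99.6, 99.8 and 99.8, H3K23su at 73.8, 79.3, 91.2 and 78.3, and a difference of 1.91 ± 0.163 (adjusted p = 5.40e-05). RPS14, the small subunit gene lost in the 5q- syndrome, had H3K27ac at 99.6, 99.4, 99.1 and 99.2 and H3K23su at 76.5, 85.8, 87.1 and 87.7, a difference of 1.46 ± 0.157 (adjusted p = 0.000162). RPS19, the gene most often mutated in Diamond-Blackfan anaemia, differed by 1.35 ± 0.144. At RPL3, RPL19, RPS14 and RPS19 no H3K23su percentile reached the lowest H3K27ac percentile.

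RPL5 and RPL11, which join the 5S RNA and can bind MDM2, ranked higher for H3K27ac by 0.704 ± 0.173 and 0.834 ± 0.164. Of the stalk, which recruits the GTPases of translation, RPLP0 and RPLP2 ranked higher for H3K27ac by 1.02 ± 0.156 and 1.32 ± 0.184. RPLP1 stood at −0.147 ± 0.210 and did not pass, with H3K23su at 95.2, 98.6, 90.4 and 98.1. RPS6, the substrate of the S6 kinases, ranked higher for H3K27ac by 0.671 ± 0.158.

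The 3 genes where H3K27ac ranked lower were RPS27L, RPL30 and RPL14. RPS27L had H3K27ac at 94.1, 95.3, 96.9 and 97.7, below its H3K23su values in every list, and a difference of −0.986 ± 0.154 (adjusted p = 0.00109). RPL30 had H3K27ac at 85.9, 89.6, 89.7 and 89.5 and H3K23su at 97.3, 95.2, 95.4 and 98.0, a difference of −0.620 ± 0.151. RPL14 differed by −0.483 ± 0.166, with an adjusted p of 0.0449, close to the threshold of 0.05. RPL22, which its paralog RPL22L1 can replace in the ribosome, had H3K23su at 96.7, 99.4, 99.1 and 99.8 and H3K27ac at 98.3, 98.6, 99.6 and 99.3, so that both marks were strong and their values overlapped (−0.0534 ± 0.191). Among the paralogs, RPL22L1 stood at 0.222 ± 0.189, RPL7L1 at 0.382 ± 0.194, RPL36AL at −0.250 ± 0.147 and RPL26L1 at −0.379 ± 0.183, none of which passed.

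Other gene groups are given beside them. H3K27ac ranked higher at 13 of 76 genes of mitochondrial ribosomal proteins (17.1%), 9 of 41 of proteasome subunits (22.0%), 18 of 52 of ribosome biogenesis (34.6%) and 9 of 20 translation factors and others with oligopyrimidine mRNAs (45%). Of this last list, EEF1A1, the factor that brings tRNAs to the ribosome, was at a mean percentile of 70.8 ± 19.9 for H3K23su and 98.8 ± 0.346 for H3K27ac (SD, n = 4), a difference of 1.66 ± 0.206. HNRNPA1 differed by 1.46 ± 0.144, TPT1 by 1.24 ± 0.154 and RACK1, a protein of the small subunit without an RPS name, by 1.15 ± 0.162. EIF3L differed in the other direction, by −0.880 ± 0.145. The mitochondrial ribosomal proteins had an H3K23su median of 91.0 and an H3K27ac median of 91.8. Differences between the lists were not tested.

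Between the lines, no ribosomal protein gene passed the threshold in width or rank of either mark. HCT15-FR was compared with HCT15-Pa by limma over all genes with a peak in all 4 lists, after the log2 width was centred on the median of each library. For H3K23su width 0 of the 72 genes passed, and 0% of all 10242. For H3K23su rank 0 passed, and 0.0195% of all genes, which is 2 genes. For H3K27ac width and rank 0 of 81 passed, and 0% of all 11067 in each. At an unadjusted p under 0.05 there were 4 of 72 genes for H3K23su width, 5 of 72 for H3K23su rank, 8 of 81 for H3K27ac width and 15 of 81 for H3K27ac rank. Among all genes these shares were 10.1%, 11.8%, 9.12% and 16.2%.

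**Figure D5:**
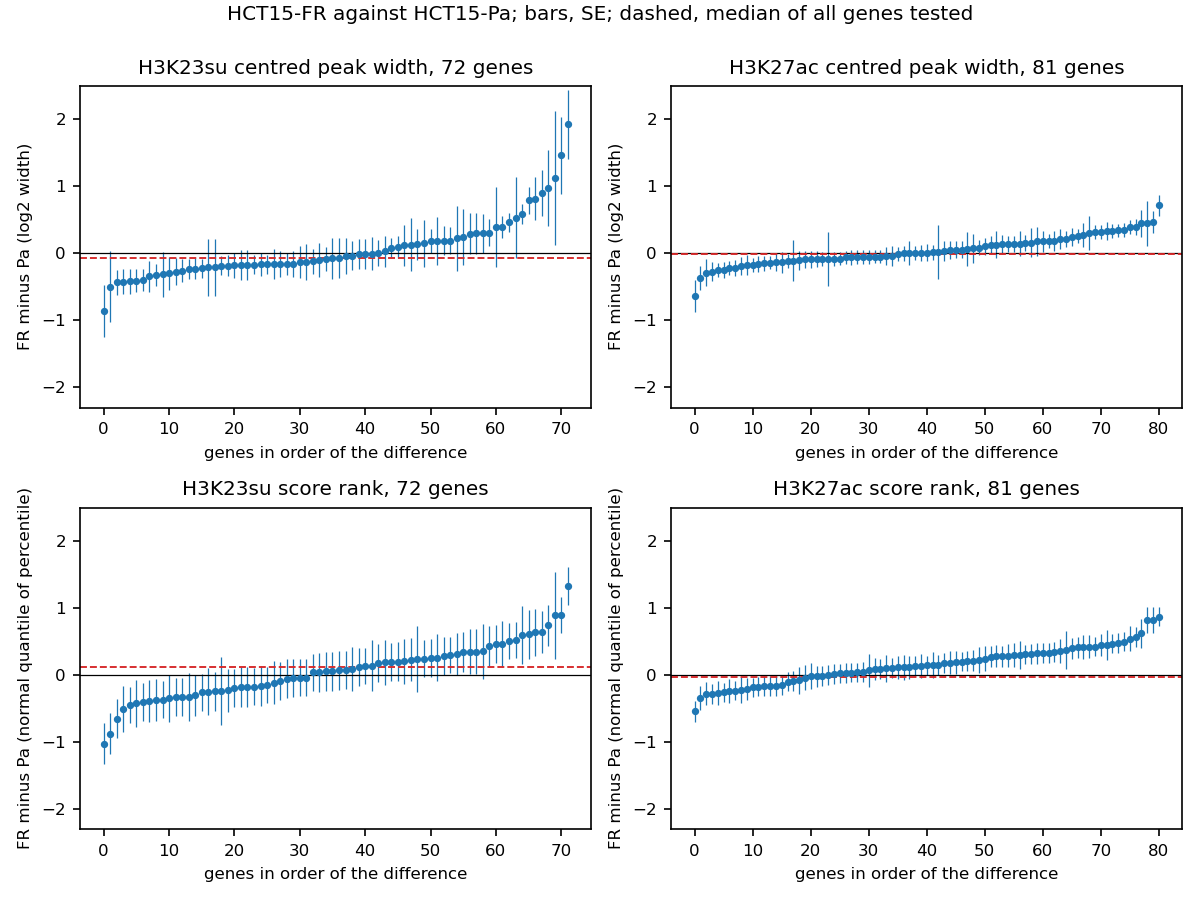
Difference HCT15-FR minus HCT15-Pa for each ribosomal protein gene with a peak in all 4 lists of the mark, in order, for centred log2 width (top) and normal quantile of the score percentile (bottom), with SE bars and the median of all genes tested dashed. None passed the threshold, and 58 of 81 differences in H3K27ac rank are above 0.

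Widths were larger in HCT15-FR at many of the genes, as they were across the genome. Both HCT15-FR widths exceeded both HCT15-Pa widths for H3K23su at 24 of 72 genes (33.3%), where 43.8% of all genes did so, and at none were both smaller, where 6.53% were. For H3K27ac the counts were 41 of 81 (50.6%) and 6, where 33.8% and 11.1% of all genes did so. After centring, the median difference was −0.07 in log2 width for H3K23su, beside −0.06 for all genes, and 0.01 for H3K27ac, beside −0.01. Without centring the H3K23su median was 0.20, beside 0.21 for all genes, so the direction of the width difference depends on this step. It was 0.05 without HCT15-Pa 1 and −0.12 at the lowest when another library was left out.

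The largest width difference was at RPL7A, whose introns hold 4 snoRNA genes and whose TSS lies within 1 kb of that of MED22. In HCT15-Pa 1 and 2 its highest-scoring H3K23su peaks were chr9:136213770-136214502 and chr9:136214393-136214679, of 733 and 287 bp, and each list held 2 peaks within 1 kb of the TSS. In HCT15-FR 1 and 2 a single peak of 2086 and 2141 bp spanned chr9:136213583-136215668 and chr9:136213414-136215554. The bases covered within 1 kb were 1043 and 709 against 1596 and 1482, so the coverage differed by less than the width of the strongest peak. H3K27ac formed a single peak of 1893 to 2074 bp there in all 4 lists. The difference in centred log2 H3K23su width was 1.93 ± 0.51 (SE, adjusted p = 0.396).

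RPS3 had H3K23su widths of 271 and 762 bp in HCT15-Pa and 1634 and 1405 bp in HCT15-FR, a centred difference of 1.46 ± 0.57 (adjusted p = 0.505). RPL3 had 338 and 533 bp against 782 and 1047 bp. RPL28 had 445 and 1202 bp against 2044 and 1477 bp, and RPL23A 414 and 444 bp against 725 and 1300 bp. The groups of 2 did not overlap at any of these 4 genes, and none of the differences passed. Genes that were narrower relative to the library median included RPL37A, with 796 and 831 bp against 832 and 903 bp, RPL36AL and RPL22L1, all of which were wider in HCT15-FR before centring.

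For H3K27ac, RPLP0 had 1076 and 984 bp in HCT15-Pa and 1373 and 1677 bp in HCT15-FR, with a centred difference of 0.46 ± 0.16 (SE, adjusted p = 0.552). RPL27 had 1179 and 1021 bp against 1536 and 1550 bp. RPL26 and RPL14 were also wider in both HCT15-FR lists. In the other direction, RPL22L1 had 1411 and 1734 bp against 915 and 1270 bp, with a centred difference of −0.63 ± 0.24 (adjusted p = 0.591). RPS16, RPL23 and RPL10A were also narrower in both HCT15-FR lists. None of these passed.

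In rank, most H3K27ac differences at the ribosomal protein genes were towards HCT15-FR, without a call at any single gene. The difference was above 0 at 58 of 81 genes (71.6%), where 45.2% of all genes were above 0, and its median was 0.147, beside −0.0322. Both HCT15-FR percentiles exceeded both HCT15-Pa percentiles at 36 genes (44.4%), where 21.9% of all genes did so, and fell below them at 14 (17.3%), where 28.2% did. The median was between 0.0966 and 0.217 when any 1 library was left out. For H3K23su the median was 0.0620, beside 0.112 for all genes, and both HCT15-FR percentiles lay above both HCT15-Pa percentiles at 14 of 72 genes and below at 10. Those counts compare with 28.7% and 15.1% of all genes. Whether the H3K27ac difference over the set exceeds the spread between libraries was not tested, since 2 libraries against 2 cannot give an exact permutation p below 0.333.

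RPL11 had the largest H3K27ac rank difference. Its percentiles were 92.7 and 94.4 in HCT15-Pa and 99.1 and 99.3 in HCT15-FR. The scores behind them, which are not on the same scale in different lists, were 10.6 and 11.9 against 23.5 and 24.6. The difference in rank was 0.873 ± 0.146 (SE), with an unadjusted p of 0.000807 and an adjusted p of 0.118. It passed with lists cut to their stronger 50% (adjusted p = 0.0296) and when log2 scores replaced percentiles (adjusted p = 0.0334), and not in the other settings. For H3K23su RPL11 was at 68.5 and 84.8 against 91.3 and 94.9, a difference of 0.744 ± 0.305 (adjusted p = 0.401). Its H3K27ac widths were 1135 and 1136 bp against 1151 and 1180 bp. RPL5, its partner in the 5S particle, was at 99.5 and 99.6 against 99.8 and 99.9 for H3K27ac.

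RPL17, which shares its promoter peak with RPL17-C18orf32, was at 94.0 and 97.9 for H3K27ac in HCT15-Pa and 99.6 and 99.4 in HCT15-FR (difference 0.817 ± 0.196, adjusted p = 0.171). RPLP2 was lower in HCT15-FR for both marks. Its H3K27ac percentiles were 97.5 and 95.9 against 88.9 and 91.9, and its H3K23su percentiles 68.4 and 85.6 against 35.7 and 44.5, with differences of −0.542 ± 0.160 and −1.02 ± 0.308, neither of which passed. RPL27 had H3K23su at 50.1 and 36.9 against 86.2 and 89.3, the largest H3K23su rank difference, 1.33 ± 0.282 (adjusted p = 0.175). At RPL17, RPLP2 and RPL27 the 2 HCT15-FR values did not overlap the 2 HCT15-Pa values in the mark given.

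Whether the width change between the lines differed between the marks was tested by the interaction term in all 8 libraries. It passed at 0 of 72 ribosomal protein genes and at 0.188% of the 10091, which is 19 genes. The largest difference of changes was at RPL7A, −2.04 ± 0.57 in log2 width (SE, adjusted p = 0.410), with the H3K23su peak the one that was wider in HCT15-FR. Without H3K23su replicate 1 of HCT15-Pa, RPL7A, RPL23 and RPL36 passed, and without replicate 2 of the same group RPL7A and RPS3 passed. In the same fits 170 of 10308 and 196 of 10279 genes passed in all, so calls were more frequent over all genes too. RPL7A passed in both fits and the other 3 in 1 each, and in such a fit the remaining library is assumed to vary like the other groups.

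The neighbourhood of the genes was also recorded. Another protein-coding TSS lay within 1 kb at 19 of the 84 genes (22.6%), beside 14.4% of all genes, and 4 of the 19 are the read-through genes and their partners. RPL9, for example, starts within 1 kb of LIAS, RPL35 of ARPC5L and RPS25 of TRAPPC4, so a promoter peak there cannot be assigned to either gene. The introns of 28 genes hold 58 snoRNA genes on the same strand, and RPL4, RPL7A, RPL13A and RPL23A hold 4 each. Outside the autosomes, which the choice of genes was limited to, RPL10, RPL36A, RPL39 and RPS4X had both marks in all lists. RPL10 was at 47.9, 58.3, 87.7 and 76.9 for H3K23su and 87.2, 92.4, 88.6 and 85.5 for H3K27ac. Of 1530 pseudogenes with ribosomal protein names, 21 had H3K23su and 26 had H3K27ac in all 4 lists, or 1.37% and 1.70%.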

How the data were processed

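The files are 8 peak lists, 1 for each CUT&Tag library. According to the paper and the processing notes, the authors aligned reads to hg19 with Bowtie2, filtered them with SAMtools and called peaks in each library with MACS2, in broad mode for H3K27ac. The deposited score is the −log10 P value that MACS2 gave a peak, and the lists hold no read counts. All columns of measurements were used, and 0 were left out.

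Starts of autosomal protein-coding genes came from GENCODE release 44 mapped to GRCh37. Sequences were read from the GRCh37 genome, with the YY1 and NRF1 motifs shortened to 9 letters. Log2 width and the normal quantile of the score percentile of the highest-scoring peak within 1 kb were fitted with limma 3.58.1 in R 4.3.3 over all genes with a peak in every list used, with Benjamini-Hochberg adjustment over all of them and a threshold of 0.05, two-sided. Other steps used Python 3.11.15 with numpy 2.4.6, pandas 2.3.3, scipy 1.17.1 and matplotlib 3.10.9. The limma comparison of the lines was tried on simulated widths and ranks with planted changes.

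Groups follow the labels. The genes and comparison lists were chosen with earlier results of these data known. The comparison of ranks between the marks and the check of 10 epithelial genes were added after the data were seen. Genes are named if they lacked a peak in some list, had 1 of the 5 widest or narrowest peaks or the 4 highest or lowest mean percentiles of a mark, had 1 of the 5 largest width differences without overlap in either direction, passed a threshold or play one of the roles given. Which of the genes that passed between the marks to describe, the genes given for differences in rank between the lines (RPL17 and RPL27 among them) and those given for their neighbours or snoRNAs were chosen after their values were seen. Alternatives were other distances and start sites, stronger or equal list lengths, other width and score measures, leaving out each library, and the replicate number as a block. Some genes that the naming rule picks are not reported here.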

Additional observations from a re-analysis of the deposited data

How the results depend on the processing

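With 1 library left out, the remaining library of its group is assumed to vary like the others. Over other distances, start sites and list lengths, 60 to 74 genes had H3K23su and 77 to 81 had H3K27ac in all 4 lists. The lowest H3K23su count came with the stronger 50% of each list. H3K27ac ranked higher than H3K23su at 37 to 47 ribosomal protein genes when a library was left out (15.1 to 21.1% of all genes), at 45 with peaks within 2 kb (21.4%) and at 37 of 60 with the stronger 50% of each list (21.8%). The calls between the lines were 0 in every setting for H3K23su width, H3K23su rank and H3K27ac width. For H3K27ac rank 1 gene, RPL11, passed with the stronger 50% of each list, and 1, again RPL11, with log2 scores. For the interaction 3 genes passed without HCT15-Pa H3K23su replicate 1 and 2 without replicate 2, and 0 when any other library was left out. Over all genes, the calls rose from 0 to 115 and 149 for H3K27ac rank in those 2 settings, to at most 62 from 2 for H3K23su rank and to at most 196 from 19 for the interaction when a library was left out. The cause was not tested.

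Without centring, the median difference over the ribosomal protein genes moved from −0.07 to 0.20 in log2 H3K23su width, from 0.01 to 0.11 in H3K27ac width and from 0.07 to −0.11 for the interaction, beside 0.21, 0.08 and −0.13 over all genes. When a library was left out, the median log2 width difference of H3K23su ran from −0.12 to 0.0498 and the median rank difference from −0.0354 to 0.0846, each changing sign without HCT15-Pa replicate 1. The median H3K27ac width difference was −0.003 without HCT15-FR replicate 2, and that of the interaction −0.007 without HCT15-Pa H3K23su replicate 1. For H3K27ac rank it stayed above 0, from 0.0966 to 0.217, and for the difference in rank between the marks it ran from 0.656 to 0.757.

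Within each mark, deviations from the line mean were compared between libraries of the same number in the 2 lines, after centring. The correlations were −0.008, 0.0128, 0.0105 and −0.0296 for width and rank of H3K23su and of H3K27ac. They give no sign of pairing between the lines and cannot exclude it. Whether H3K23su and H3K27ac libraries of the same line and number belong together was not tested. With the replicate block, 0 ribosomal protein genes passed in any comparison of the lines. Precision is limited by 2 libraries a group and by lists without read counts.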
